A study of Mus musculus with 10 samples.

Results

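In all, 10 genes of the Notch pathway were followed across 5 types of mouse cochlear cells: the receptor Notch1, the ligands Jag1, Jag2 and Dll1, the receptor-modifying sugar transferase Lfng, and the transcriptional repressors Hes1, Hes5, Hey1, Hey2 and Heyl. They were chosen by name, and the rows with these symbols were found for all 10 members among the 34590 genes listed in each table, of which 23415 had a count in any library. The data were bulk RNA-seq read counts from pools of fluorescent cells picked by hand after enzymatic dissociation of the cochlea, with 2 libraries for each cell type. SCs (P26) were supporting cells at postnatal days 26 and 27 from Fgfr3-iCreER mice with a tdTomato reporter that Cre switches on, injected with tamoxifen at P12 and P13 per the methods. In these mice iCreER labels mainly Deiters' cells and pillar cells, so SCs here stand for those types. cHCs (P33) were converted hair cells at day 33, formed from such cells in mice that also carried Atoh1-HA, an Atoh1 transgene driven by the CAG promoter after Cre recombination, and alpha9 AChR-EGFP, a green reporter of hair cells, with the same tamoxifen days. OHCs (P7) were outer hair cells at day 7, which the labels place in prestin-YFP knock-in mice and the methods in Prestin-CreERT2 mice with the tdTomato reporter, given tamoxifen at P2 and P3. OHCs (P22) were outer hair cells from prestin-YFP knock-in mice, labelled day 21 and day 22 where the methods give P22 and P23, and are named below by the labels. IHCs (P74) were inner hair cells from Pval-Cre mice (Pvalb-Cre in the titles) with the tdTomato reporter at days 74 and 75. Only the cHC mice carried the Atoh1 transgene.

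Notch signalling passes between cells in contact: a Jagged or Delta ligand on a cell binds the receptor on its neighbour, the receptor is cut by proteases, and its freed intracellular part joins the DNA-binding protein RBPJ to switch on genes of the Hes and Hey families. In the developing organ of Corti, hair cells display Jag2 and Dll1, and the Hes and Hey repressors of the neighbouring cells hold down Atoh1, the gene that drives hair cell fate, so that those cells become supporting cells. Jag1 is known instead from the supporting cell side, and Lfng alters which ligands the receptor answers to.

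Reads counted on genes ranged from 15016129 to 40518766 over the libraries. Levels are given as TMM CPM, the share of a library's reads that fall on a gene, in CPM units scaled by the trimmed mean of M values. A single read was worth between 0.0254 and 0.0882 TMM CPM, and a library with no read of a gene allowed a level of up to 3 reads, between 0.0762 and 0.264 TMM CPM (counting error only). The labels were checked against markers. The summed TMM CPM of 8 hair cell markers was 360 and 361 in SCs and between 3689 and 6345 in the other libraries, the outer hair cell pair Slc26a5 and Ocm summed to between 4255 and 12027 in OHCs and to at most 241 elsewhere, and the inner hair cell pair Slc17a8 and Otof summed to 6917 and 5979 in IHCs and to at most 1171 elsewhere. Atoh1 was at 364 and 1812 TMM CPM in cHC replicates 13 and 16 and at no more than 6.44 in any other library, with reads of the transgene and of the native gene not told apart. The labels number the libraries of SCs, cHCs and OHCs (P7) from 11 to 16 and those of OHCs (P22) and IHCs in another, higher series. Cell type and number series therefore cannot be told apart in any comparison that crosses them, and the comparisons within a series are those among SCs, cHCs and OHCs (P7) and that of IHCs with OHCs (P22). No groups shared an age, so age and cell type cannot be told apart in any comparison between cell types, also within a series. The mouse lines differed between the cell types as given above, apart from OHCs of both ages by the labels. In such pools, fewer cells of a type and less RNA per cell cannot be told apart either.

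RefSeq promoter windows of 250 bases before to 50 after the start site were matched to 7 of the 10 members, all except Hes1, Hey1 and Heyl, and each window was found once in the mm9 genome. They were searched on both strands for TGGGAA, the core that RBPJ binds, and for the E-boxes CAGCTG and CAGATG, of the type bound by ATOH1 and related factors. These 4 windows are shown because their genes carry the main contrasts below: Hes5 was highest in cHCs, Hey2 was lowest in mature OHCs, Lfng differed most between duplicate libraries, and Jag2 separated SCs from every type of hair cell. Capitals mark a TGGGAA or CAGCTG match on either strand, and the coordinates are of mm9 with the strand in brackets.
Hes5 promoter, chr4:154334782-154335081 (plus): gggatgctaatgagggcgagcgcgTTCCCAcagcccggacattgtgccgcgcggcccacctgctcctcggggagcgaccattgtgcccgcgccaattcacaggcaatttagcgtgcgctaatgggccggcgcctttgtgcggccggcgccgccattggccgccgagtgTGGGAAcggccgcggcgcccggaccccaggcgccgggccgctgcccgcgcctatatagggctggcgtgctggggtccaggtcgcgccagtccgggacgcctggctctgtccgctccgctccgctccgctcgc
Hey2 promoter, chr10:30562540-30562839 (minus): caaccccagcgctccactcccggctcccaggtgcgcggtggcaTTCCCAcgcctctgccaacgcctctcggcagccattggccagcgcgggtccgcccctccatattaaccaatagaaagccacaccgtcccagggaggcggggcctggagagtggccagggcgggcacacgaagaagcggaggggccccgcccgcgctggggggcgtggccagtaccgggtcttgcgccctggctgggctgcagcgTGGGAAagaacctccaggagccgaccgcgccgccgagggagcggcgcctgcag
Lfng promoter, chr5:141083045-141083344 (plus): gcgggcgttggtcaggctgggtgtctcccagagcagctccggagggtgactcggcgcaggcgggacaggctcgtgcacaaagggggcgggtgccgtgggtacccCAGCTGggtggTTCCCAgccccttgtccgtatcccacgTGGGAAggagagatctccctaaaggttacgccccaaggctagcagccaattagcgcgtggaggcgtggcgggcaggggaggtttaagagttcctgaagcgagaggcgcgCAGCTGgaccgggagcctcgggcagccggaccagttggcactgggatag
Jag2 promoter, chr12:114167657-114167956 (minus): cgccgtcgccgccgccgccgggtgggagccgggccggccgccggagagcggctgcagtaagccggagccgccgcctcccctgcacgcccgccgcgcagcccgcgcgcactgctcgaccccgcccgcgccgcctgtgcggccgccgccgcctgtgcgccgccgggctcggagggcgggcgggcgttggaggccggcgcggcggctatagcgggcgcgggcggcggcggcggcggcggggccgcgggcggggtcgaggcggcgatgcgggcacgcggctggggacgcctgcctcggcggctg
The Hes5 window held the RBPJ core 82 bases before the start on the gene's strand and 226 before it on the other, the Hey2 window 3 and 207 before it, and the Lfng window 108 and 135 before it. Each of these 3 windows thus held a pair of cores in opposite orientation, while the Jag2 window held none of the motifs. The core occurred in 25.6% of 32851 promoter windows of this length and in those of 3 of the 7 members. CAGCTG occurred in 16.3% of all windows and in those of Jag1, Dll1 and Lfng, and CAGATG in 17.2% and in no member's. Such matches describe the letters of these windows only.

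**Figure D1:**
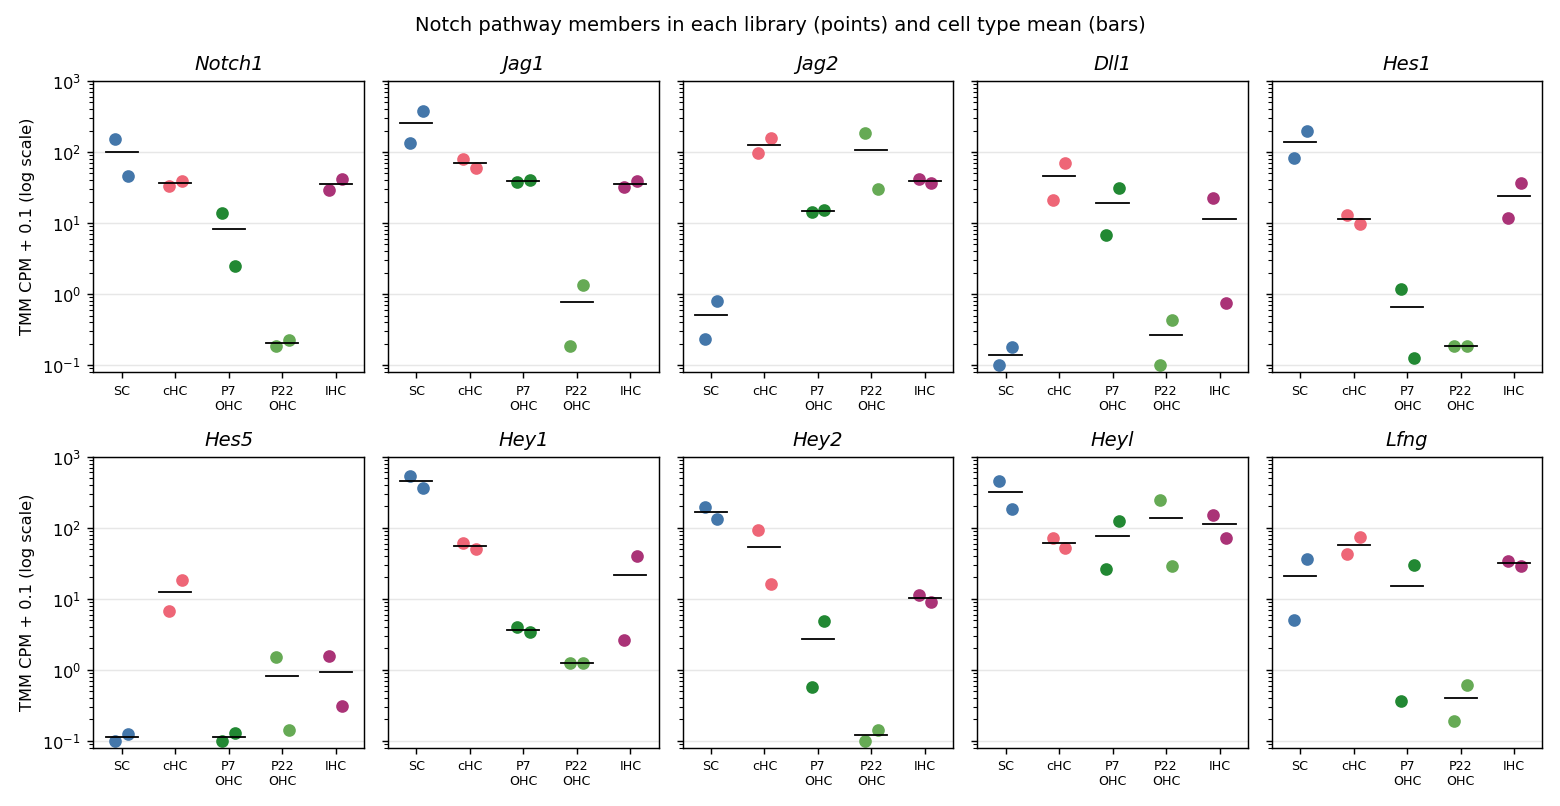
TMM CPM plus 0.1 (log scale) of each member by cell type. Each point is 1 library and each black bar the mean of 2. In mature OHCs (P22), every member except Jag2 and Heyl is at 1.41 TMM CPM or less in both libraries. Jag2 is low in SCs and at 14.2 or more in every library of hair cells.

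Among the ligands, Jag1 and Jag2 had opposite patterns. Jag2 (chr12:114146801-114167706, minus strand) was at 0.133 and 0.691 TMM CPM in SC replicates 12 and 11 (3 and 26 reads), 97.1 and 157 in cHC replicates 13 and 16, 14.2 and 15.2 in OHC (P7) replicates 15 and 14, 184 and 29.9 in OHCs (P22) of day 21 and day 22, and 41.8 and 36.1 in IHCs of day 74 and day 75. Every hair cell library lay above both SC libraries, cHCs were the highest by mean, and the wide spread of mature OHCs (6.16-fold) overlapped both cHCs and IHCs. Jag2 was the sole member called in cHCs, where it exceeded the SC level (log2 fold change 8.22, SE 1.29, adjusted p = 0.00646, edgeR quasi-likelihood test with Benjamini-Hochberg adjustment, as throughout), and it was also higher in OHCs (P22) by 7.97 (SE 1.27, adjusted p = 0.00364), in IHCs by 6.51 (SE 1.20, adjusted p = 0.0145) and in OHCs (P7) by 5.10 (SE 1.12, adjusted p = 0.0327). Without SC replicate 12 the call was lost in IHCs (adjusted p = 0.0606) and in OHCs (P7) (adjusted p = 0.125). Both of these calls were also lost with limma-voom (adjusted p = 0.0547 and 0.123) and in a fit of only the types compared (0.0944 and 0.157).

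Jag1 (chr2:136907192-136942380, minus strand), the ligand of the supporting cell side, was at 136 and 377 TMM CPM in SCs, 80.9 and 60.4 in cHCs, 37.8 and 40.8 in OHCs (P7), 0.0882 and 1.26 in OHCs (P22), and 31.7 and 39.4 in IHCs. SCs were above every other library, young OHCs and IHCs overlapped, and mature OHCs were lowest, at 1 and 30 reads. The mean in cHCs was 27.6% of that in SCs, a difference that was not called (log2 fold change -1.86, SE 0.893, adjusted p = 0.356, edgeR). Against OHCs (P22), Jag1 was higher in SCs (OHC minus SC -8.48, SE 1.21, adjusted p = 0.00191).

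Dll1 (chr17:15504318-15513836, minus strand), a Delta ligand of nascent hair cells, was at 0 and 0.0797 TMM CPM in SCs (0 and 3 reads), 20.9 and 70.0 in cHCs, 6.78 and 31.6 in OHCs (P7), 0 and 0.337 in OHCs (P22), and 22.1 and 0.653 in IHCs. It was thus detected well above 0 in cHCs, in young OHCs and in a single IHC library, the IHC duplicates differing 33.9-fold, while SCs and mature OHCs overlapped near 0. The ratio of cHCs to SCs was 1035 (95% counting interval 354 to 5023), and that of OHCs (P7) to SCs was 490 (167 to 2380). Neither difference was called (adjusted p = 0.103 and 0.0974, edgeR). The difference of OHCs (P7) from SCs was called by limma-voom, by DESeq2 and with no filter on low counts. In cHCs against SCs it was called by limma-voom (adjusted p = 0.0214), by DESeq2 (2.35e-06), with no filter on low counts (0.000878), and without the IHC library of day 74 (0.0442) or day 75 (0.0337), which enter the shared estimate of spread. An overlapping long noncoding gene, A930024N18Rik, lies on the other strand of Dll1, and since the strand setting of the counting was not stated, their reads may not be told apart. The same holds for Notch1, with 0610009E02Rik and Gm13568, and for Hes5, with RP24-89N4.5.

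The receptor was lowest in mature OHCs. Notch1 (chr2:26313423-26372183, minus strand) was at 153 and 46.5 TMM CPM in SCs, 33.1 and 39.2 in cHCs, 13.7 and 2.40 in OHCs (P7), 0.0882 and 0.126 in OHCs (P22) (1 and 3 reads), and 29.0 and 42.1 in IHCs. The cHC and IHC libraries overlapped at 36.3% and 35.6% of the SC mean, and their difference of -0.03 (log2, SE 0.981) was small against its error. OHCs (P22) were below SCs by a log2 difference of -9.76 (SE 1.47, adjusted p = 0.00253, edgeR) and below cHCs by -8.30 (SE 1.40, adjusted p = 0.0113), the latter not called without the day 21 OHC library (adjusted p = 0.0603).

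Lfng (chr5:141083295-141091497, plus strand), the sugar transferase, was at 4.97 and 36.5 TMM CPM in SCs, 42.3 and 73.5 in cHCs, 0.269 and 29.9 in OHCs (P7), 0.0882 and 0.505 in OHCs (P22), and 34.1 and 29.1 in IHCs. cHCs were the only type whose libraries both lay above those of every other type. The duplicate OHC (P7) libraries differed 111-fold (4 and 1095 reads), the widest gap between duplicates among the members, and edgeR called no comparison of Lfng, the smallest adjusted p being 0.0863 for OHCs (P22) against cHCs. DESeq2 and edgeR with no filter on low counts called it lower in OHCs (P22) than in SCs, cHCs, OHCs (P7) and IHCs. Without either OHC (P7) library edgeR called it lower in OHCs (P22) than in SCs, cHCs and IHCs, and without SC replicate 12 than in cHCs.

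Of the effectors, Hes1, Hey1 and Hey2 were highest in SCs and lowest by mean in mature OHCs. Hey1 (chr3:8663362-8667039, minus strand) was at 537 and 359 TMM CPM in SCs, 60.0 and 50.8 in cHCs, 3.89 and 3.30 in OHCs (P7), 1.15 and 1.14 in OHCs (P22), and 2.49 and 40.4 in IHCs. SCs were above all other libraries, cHCs above all hair cells from animals without the transgene, and the IHC duplicates were 16.2-fold apart. The cHC mean was 12.4% of that of SCs, a log2 difference of -3.01 (SE 0.991) that was not called by edgeR (adjusted p = 0.198). It was called by limma-voom (0.0170), DESeq2 (0.0317), with no filter on low counts (0.0114) and without the IHC library of day 74 (0.0309) or day 75 (0.0324). In OHCs (P7) Hey1 was lower than in SCs by -6.96 (SE 1.19, adjusted p = 0.00920) and in OHCs (P22) by -8.61 (SE 1.29, adjusted p = 0.00240).

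Hes1 (chr16:30064470-30067882, plus strand), a direct Notch target in many tissues, was at 83.3 and 195 TMM CPM in SCs, 12.7 and 9.75 in cHCs, 1.07 and 0.0273 in OHCs (P7), 0.0882 and 0.0842 in OHCs (P22), and 11.8 and 36.8 in IHCs. SCs again stood above every other library, and cHCs and IHCs overlapped. OHCs of the 2 ages also overlapped, with between 1 and 16 reads, and replicate 14 of OHCs (P7) was the lowest library. The ratio of SCs to OHCs (P22), with 9223 and 3 reads, was 1793 (95% counting interval 613 to 8696). Hes1 was called lower than in SCs in OHCs (P22) (adjusted p = 0.00604, edgeR) and in OHCs (P7) (log2 fold change -8.05, SE 1.65, adjusted p = 0.0231). The second call was lost without SC replicate 11 (adjusted p = 0.0711) or OHC (P7) replicate 14 (adjusted p = 0.0540). The cHC mean, 8.07% of that of SCs, was not called (log2 fold change -3.63, SE 1.33, adjusted p = 0.247), and of the alternatives DESeq2 called it (adjusted p = 0.0297).

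Hey2 (chr10:30552165-30562607, minus strand), known from the pillar cell side of the organ of Corti, was at 198 and 134 TMM CPM in SCs, 92.2 and 16.1 in cHCs, 0.470 and 4.72 in OHCs (P7), 0 and 0.0421 in OHCs (P22), and 11.3 and 8.90 in IHCs. No pair of neighbouring types overlapped, in the order SC, cHC, IHC, OHC (P7), OHC (P22), and mature OHCs had a single read between them. The cHC duplicates were 5.74-fold apart, and their difference from SCs was not called (log2 fold change -1.62, SE 1.12, adjusted p = 0.525, edgeR). Hey2 was lower than in SCs in OHCs (P22) (ratio of SCs to OHCs 5548, 95% counting interval 996 to 219162, adjusted p = 0.00246) and in OHCs (P7) (log2 fold change -5.98, SE 1.35, adjusted p = 0.0368). The second call was lost without SC replicate 12 (adjusted p = 0.0826) or OHC (P7) replicate 15 (adjusted p = 0.139).

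Hes5 and Heyl departed from the pattern of highest in SCs and lowest in mature OHCs. Hes5 (chr4:154335032-154336480, plus strand), a Notch target of supporting cells in the immature cochlea, was at 0 and 0.0266 TMM CPM in SCs (0 and 1 read), 6.68 and 18.3 in cHCs (157 and 721 reads), 0 and 0.0273 in OHCs (P7), 1.41 and 0.0421 in OHCs (P22), and 1.48 and 0.206 in IHCs. cHCs were above every other library. The ratio of cHCs to SCs was 840 (95% counting interval 150 to 33222) and that of cHCs to OHCs (P7) was 720 (129 to 28468). Neither passed the threshold in edgeR (adjusted p = 0.200 and 0.317), whereas limma-voom and DESeq2 called the difference from SCs (adjusted p = 0.0195 and 0.00206). Heyl (chr4:122910799-122927118, plus strand) was at 456 and 183 TMM CPM in SCs, 70.9 and 52.3 in cHCs, 26 and 126 in OHCs (P7), 246 and 29.0 in OHCs (P22), and 152 and 71.3 in IHCs. Each type overlapped the next in the order of means, and Heyl was the only effector at 29.0 TMM CPM or more in both mature OHC libraries. Against SCs alone, the libraries of cHCs, OHCs (P7) and IHCs all lay below both SC libraries. The cHC mean was 19.3% of that of SCs (log2 fold change -2.37, SE 1.02, adjusted p = 0.310, edgeR). No comparison of Heyl was called by edgeR, and with no filter on low counts cHCs were called lower than SCs (adjusted p = 0.0442).

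Both cHC replicates carried the ligands of hair cells together with effectors of supporting cells, in differing amounts. In replicate 16, where the Atoh1 level was 4.98-fold that of replicate 13, Dll1 was 3.34-fold, Hes5 2.74-fold, Lfng 1.74-fold and Jag2 1.62-fold the level in replicate 13. Hey2 was instead 5.74-fold higher in replicate 13, followed by Heyl (1.35-fold), Jag1 (1.34-fold), Hes1 (1.30-fold) and Hey1 (1.18-fold). Notch1, though highest in SCs, was 1.18-fold higher in replicate 16 (33.1 and 39.2 TMM CPM in replicates 13 and 16). Of the 8 supporting cell markers, 6 were lower in replicate 16: Sox2 (30.9 and 6.93 TMM CPM in replicates 13 and 16), Sox9 (126 and 16.0), Cdkn1b (121 and 57.6), Gjb2 (83.4 and 1.73), Gjb6 (38.0 and 4.45) and Slc1a3 (77.9 and 0.330). Fgfr3 was nearly level (458 and 431), and Prox1 was higher in replicate 16 (247 and 293). These are differences between a pair of libraries, with no test.

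**Figure D2:**
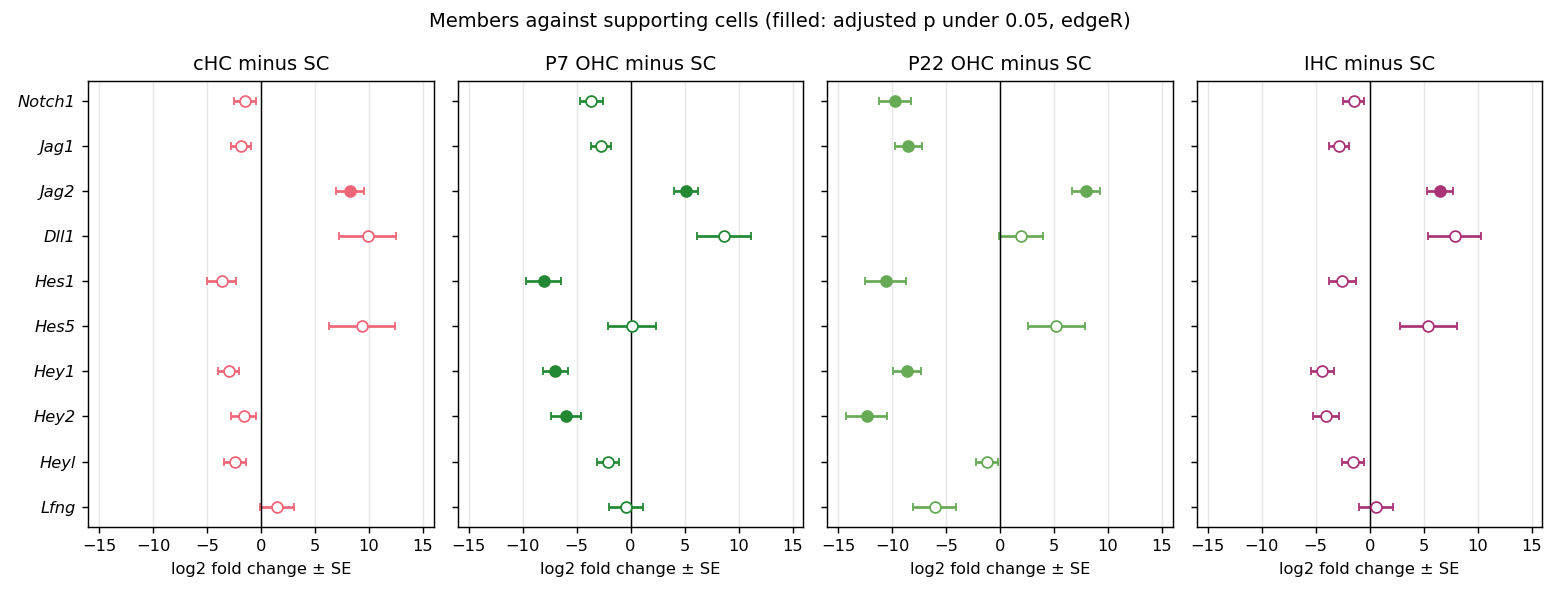
Log2 fold change of each member (rows) in each hair cell type against SCs, with bars of 1 SE. Filled points have an adjusted p under 0.05 (edgeR): Jag2 is filled to the right in all 4 panels, and Hes1, Hey1 and Hey2 are filled to the left in OHCs of both ages.

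The question of conversion was addressed by cHCs against SCs. The edgeR test called 1 of the 10 members, Jag2, where 1.84% of the 16891 genes tested were called, and 6 members had an unadjusted p under 0.05. Here and below, the share of all genes is given only for edgeR calls in the model of all 10 libraries and for non-overlap. Counts by unadjusted p, or by another method or fit, have no such share to be read against. All 10 members had libraries that did not overlap between the types (4 higher in cHCs and 6 lower), where 45.8% of all genes did not, and the median log2 fold change was -1.54 against 0.03 over all genes. Without the day 74 or day 75 IHC library there were 3 calls (Jag2, Dll1 and Hey1).

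Against SCs, OHCs (P7) had 4 members called, 1 higher and 3 lower, where 3.41% of all genes were called. The libraries of 8 members did not overlap (2 higher and 6 lower), against 48.5% of genes, and the median log2 fold change was -2.39 against 0.00 over all genes. Without SC replicate 12 there were 2 calls, Hes1 and Hey1, and in a fit of only these types there was 1, Hey1. OHCs (P22) had 6 members called, Jag2 higher and Notch1, Jag1, Hes1, Hey1 and Hey2 lower, where 8.02% of genes were called. Again 8 members did not overlap, against 50.4% of genes, with a median of -7.25 against 0.00, and leaving out any library gave 6 or 7 calls. In IHCs 1 member was called, Jag2, where 2.65% of genes were, 9 did not overlap (3 higher and 6 lower) against 47.1% of genes, and the median was -1.50 against 0.00. The IHC count was 0 without SC replicate 12, 3 without either OHC (P22) replicate and 2 without either cHC or OHC (P7) replicate or the day 75 IHC library. These 4 comparisons share the SC libraries.

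How cHCs stood beside native hair cells was addressed by 3 comparisons, which share the cHC libraries. For OHCs (P7) against cHCs, edgeR called 0 members, where 0.343% of all genes were called. With an unadjusted p under 0.05 there were 5, limma-voom called 1 (Hes5) and DESeq2 called 5 (Hes1, Hes5, Hey1, Hey2 and Jag2), all lower in OHCs. For these counts no share of all genes is given, so no excess over it can be read from them. The libraries of 8 members did not overlap, all lower in OHCs, against 45.1% of genes. Without the day 74 or day 75 IHC library, edgeR called 1 member, Hey1. OHCs (P22) had 5 members lower than cHCs, Notch1, Jag1, Hes1, Hey1 and Hey2, where 3.18% of genes were called and 49.1% did not overlap, against 8 of the members. Here Jag1 differed by -6.62 (SE 1.12, adjusted p = 0.0113) and Hey1 by -5.60 (SE 1.13, adjusted p = 0.0240), and Jag2 by -0.25 (SE 0.933), a difference within its error. The ratio of cHCs to OHCs was 1562 for Hey2 (95% counting interval 280 to 61698, adjusted p = 0.0103) and 127 for Hes1 (43.3 to 618, adjusted p = 0.0470). The count was 1 (Jag1) without the day 21 OHC library and 3 (Jag1, Notch1 and Hey2) without that of day 22, and Hes1 was also not called without SC replicate 11 (adjusted p = 0.0597) or cHC replicate 13 (adjusted p = 0.0605). With limma-voom neither Hes1 nor Hey1 was called here, and a fit of only these types called Hey2 alone. In IHCs against cHCs, 0 members were called by edgeR, by limma-voom or by DESeq2, 0 had an unadjusted p under 0.05, and 0.924% of all genes were called. The libraries of 7 members did not overlap, 6 of them lower in IHCs, against 46.4% of genes. The medians of the members in these comparisons were -2.64, -6.79 and -1.18, against -0.09, -0.19 and -0.05 over all genes.

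Among native hair cells, Jag1 was called lower in OHCs (P22) than in OHCs (P7) (log2 fold change -5.77, SE 1.08, adjusted p = 0.0474, edgeR), 1 of 10 members where 0.551% of all genes were called. The libraries of 7 members did not overlap (2 higher and 5 lower at P22), against 43.5% of genes, and 6 members had an unadjusted p under 0.05. Jag1 was not called with limma-voom (adjusted p = 0.163), in a fit of only these types (0.223), without the day 21 OHC library (0.125) or OHC (P7) replicate 14 (adjusted p = 0.0527). The count was 0 without the former, and 2 without SC replicate 11, OHC (P7) replicate 15 or the day 74 IHC library. IHCs had 4 members higher than OHCs (P22), where 1.46% of genes were called: Notch1 by 8.27 (SE 1.40, adjusted p = 0.0201), Jag1 by 5.63 (SE 1.07, adjusted p = 0.0309), Hey2 (adjusted p = 0.0359) and Hes1 (adjusted p = 0.0453). For Hey2 the ratio of IHCs to OHCs was 355 (95% counting interval 63.5 to 14050) and for Hes1 it was 283 (96.7 to 1374). The libraries of 7 members did not overlap, all higher in IHCs, against 42.7% of genes. The count was 0 without the day 21 OHC library, 1 (Jag1) without that of day 22 and 0 with limma-voom or in a fit of only these types, and Hes1 was also not called without SC replicate 11 (adjusted p = 0.0564) or the day 75 IHC library (adjusted p = 0.0643).

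**Figure D3:**
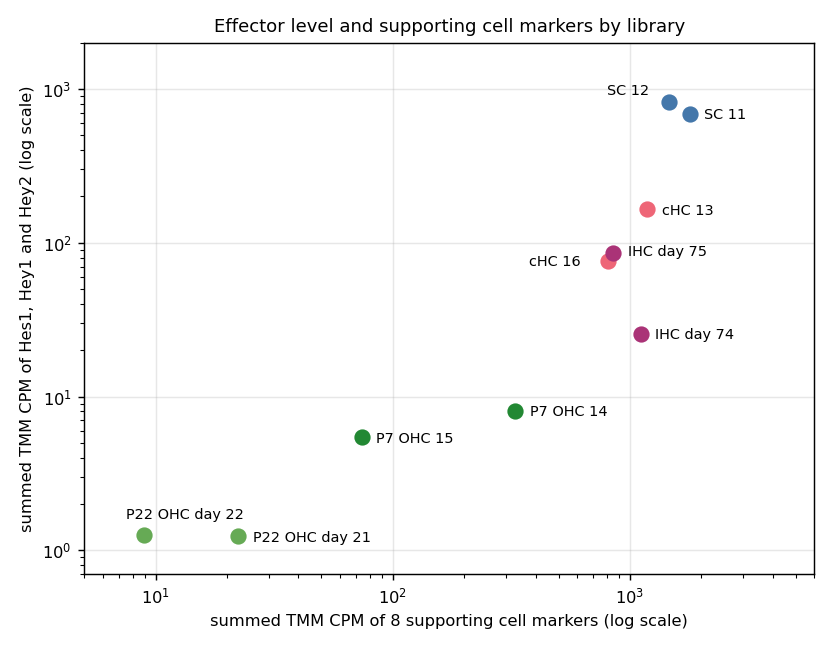
Summed TMM CPM of Hes1, Hey1 and Hey2 (vertical, log scale) against the summed TMM CPM of 8 supporting cell markers (horizontal, log scale). Heyl and Hes5, whose means were not lowest in mature OHCs, are not in the sum. Each point is 1 of the 10 libraries: the mature OHC libraries lie at the lower left, the SC libraries at the upper right, and cHCs and IHCs between them.

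Effector levels were set beside markers of supporting cells, with no test of the relation. The 8 markers Sox2, Sox9, Prox1, Fgfr3, Gjb2, Gjb6, Cdkn1b and Slc1a3 summed to 1455 and 1787 TMM CPM in SCs, 1182 and 812 in cHCs, 74.2 and 328 in OHCs (P7), 22.3 and 8.97 in OHCs (P22), and 1111 and 852 in IHCs. The sum of Hes1, Hey1 and Hey2 was 818 and 688, 165 and 76.6, 5.44 and 8.05, 1.23 and 1.26, and 25.6 and 86.2 TMM CPM in the same libraries. Hes1, Hey1 and Hey2 were summed because each mean was highest in SCs and lowest in OHCs (P22). These ends in the order of their sum follow from that choice. By mean, Hes1 was higher in IHCs than in cHCs (24.3 and 11.2 TMM CPM). Hey1 (21.5 and 55.4) and Hey2 (10.1 and 54.1) were lower in IHCs than in cHCs. Heyl, at 246 and 29.0 TMM CPM in OHCs (P22), and Hes5 were left out of the sum. Between cell types both sums were highest in SCs and lowest in OHCs (P22), but within types they did not always run together. In SCs and in IHCs the library with more of the markers had less of these effectors. The marker sum of cHCs was carried by Fgfr3 and Prox1, whose means were 445 and 270 TMM CPM in cHCs against 239 and 34.2 in SCs. Libraries of IHCs had 7 of the 8 markers in both replicates, led by Gjb2 at 611 and 468 TMM CPM and Slc1a3 at 243 and 193, and Fgfr3 was at 0 in the library of day 75. In OHCs (P22) Sox2 was at 0 in both replicates. The part of supporting cell RNA in the effector, Notch1 and Jag1 levels of IHCs and cHCs was not tested. In OHC (P7) replicate 15 a list of 4 mesenchyme markers summed to 382 TMM CPM, led by Col1a2 at 223, against 3.0 in replicate 14, and its part in the gaps of Lfng, Hes1 and Hey2 between these duplicates was not tested. Over all libraries, lists of 4 glial and 4 neuronal markers summed to between 0.300 and 127 and between 0.159 and 526 TMM CPM, the latter highest in IHCs, and lists of immune, endothelial and red cell markers summed to at most 16.9, 2.42 and 24.5.

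Levels of different genes were compared per kilobase of exon. In SCs the highest mean was that of Hey1 (203 TMM CPM per kb), followed by Hes1 (68.4), Hey2 (65.1), Heyl (62.5) and Jag1 (44.0), with Jag2 (0.102), Hes5 (0.00974) and Dll1 (0.00944) last. In cHCs the order was led by Jag2 (31.4), Lfng (25.4), Hey1 (25.2) and Hey2 (21.2), and Hes5 (9.17) exceeded Hes1 (5.52). In OHCs (P7) Heyl (14.9), Jag1 (6.75) and Lfng (6.60) led. In OHCs (P22) Heyl (26.8) and Jag2 (26.4) were far above the rest. Next by mean were Hes5 (0.533), which rested on the day 21 library (16 reads against 1), and Hey1 (0.518). In IHCs Heyl (21.8), Lfng (13.8) and Hes1 (11.9) led, with Notch1 at 2.50.

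**Figure D4:**
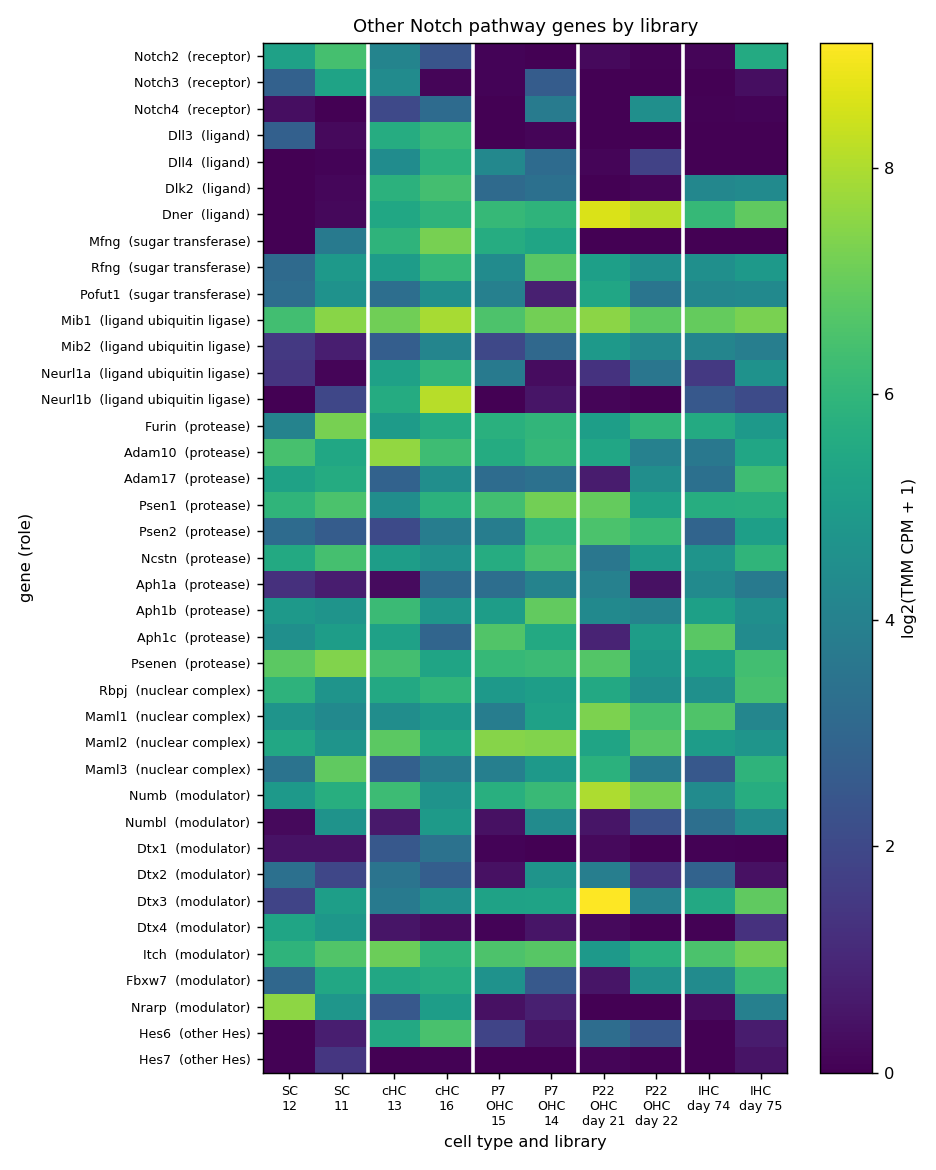
Log2 of TMM CPM plus 1 (colour) for 39 other genes of the Notch pathway (rows, with their role) in the 10 libraries (columns, grouped by cell type). Dner is dark in both SC libraries and brightest of the ligands in mature OHCs, Dlk2 is bright in both cHC libraries, and most proteases and nuclear partners are seen in every type.

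A list of 42 further genes of the pathway was taken from textbook membership, of which 39 passed the filter on low counts. Only Dner, Dlk2, Nrarp and Neurl1b were called in any of the 9 comparisons by edgeR, and no other receptor, protease or nuclear partner was. Of these, limma-voom called Notch2 lower than in SCs in OHCs of both ages and Notch3 lower in OHCs (P22), and DESeq2 called these receptors along with Psen2, Maml1 and Maml2 in some comparisons. Dner, an atypical ligand of neurons and hair cells, was at 0 and 0.133 TMM CPM in SCs, 42.2 and 59.3 in cHCs, 67.4 and 59.8 in OHCs (P7), 68.0 and 116 in IHCs, and at 286 or more in both libraries of OHCs (P22). It separated SCs from every hair cell type, as Jag2 did, and was higher than in SCs in cHCs by 9.30 (SE 1.07, adjusted p = 0.000888), OHCs (P7) by 9.63 (adjusted p = 0.000538), OHCs (P22) by 12.03 (adjusted p = 0.000162) and IHCs by 10.16 (adjusted p = 0.000506). Dlk2, a Delta-like protein that lacks the receptor-binding DSL domain, was at 0 and 0.106 TMM CPM in SCs, 56.8 and 83.2 in cHCs, 7.85 and 9.19 in OHCs (P7), 0 and 0.0842 in OHCs (P22), and 17.6 and 19.3 in IHCs. It was called higher than in SCs in cHCs (log2 fold change 10.12, adjusted p = 0.0165), OHCs (P7) (7.08, adjusted p = 0.0397) and IHCs (8.19, adjusted p = 0.0279), and lower in OHCs (P22) than in cHCs (adjusted p = 0.0143) and IHCs (adjusted p = 0.0418). Its highest libraries were thus those of cHCs, as for Dll1 by mean.

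Nrarp, a Notch target that feeds back on the receptor complex, was at 186 and 26.3 TMM CPM in SCs, 4.72 and 32.6 in cHCs, 0.336 and 0.737 in OHCs (P7), 0.202 and 14.5 in IHCs and 0 in both OHC (P22) libraries, which were called lower than SCs (adjusted p = 0.0213, edgeR). Neurl1b, a ubiquitin ligase of ligands, was at 0 and 2.87 TMM CPM in SCs, 47.4 and 277 in cHCs, 0 and 0.436 in OHCs (P7), 0.0882 and 0 in OHCs (P22), and 4.68 and 3.20 in IHCs, and was called lower in OHCs (P22) than in cHCs (adjusted p = 0.0455). For each comparison with SCs, 2 of the 39 genes were called by edgeR, beside 1.84% (cHCs), 3.41% (OHCs at P7), 8.02% (OHCs at P22) and 2.65% (IHCs) of all genes, so that in OHCs (P22) the share of the list lay below that of all genes. In the same order limma-voom called 6, 5, 5 and 3 of the list and DESeq2 8, 8, 13 and 6, with no share of all genes given for these methods. In cHCs against SCs the median log2 fold change was 0.33, against 0.03 over all genes. The count was 0 for OHCs (P7) against cHCs (7 with an unadjusted p under 0.05, 2 by limma-voom, 7 by DESeq2), for IHCs against cHCs (7, 5 and 6) and for OHCs (P22) against OHCs (P7) (7, 0 and 3). It was 2 for OHCs (P22) against cHCs (6 by limma-voom, 11 by DESeq2, 3.18% of all genes by edgeR) and 1 for IHCs against OHCs (P22) (1, 8 and 1.46%).

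Over the 10 libraries, the log2 levels of Notch1, Jag1, Hes1, Hey1 and Hey2 ran together (Pearson's r from 0.75 to 0.90 for each pair), as a description over libraries that share 5 cell types. Jag2 ran against Hey1 (r = -0.62) and Jag1 (r = -0.55) and with Hes5 (r = 0.71). Of the 10471 genes with a mean log2 CPM of at least 1, those most like a member were Tsc22d4 (0.979) and Boc (0.977) for Notch1, Tomm7 (0.989) and Fnbp1l (0.982) for Jag1, Myt1 (0.974) and Dtna (0.963) for Jag2, and Chic2 and Nipa2 (both 0.935) for Dll1. For the effectors they were Crabp2 (0.972) and Fbln5 (0.964) for Hes1, Tanc1 (0.927) and Ttc21a (0.889) for Hes5, Ssx2ip and H3f3b (both 0.961) for Hey1, Marcksl1 (0.983) and Klhl23 (0.979) for Hey2, and Arhgap21 (0.947) and Ap2m1 (0.922) for Heyl. For Lfng they were Cldn3 (0.956) and Tmem38b (0.951). Myt1, a zinc finger transcription factor of neural cells, was like Jag2 at or near 0 in SCs (0 and 0.212 TMM CPM) and at 34.2 and 131 in cHCs, 7.59 and 9.52 in OHCs (P7), 66.6 and 45.7 in OHCs (P22), and 60.5 and 43.5 in IHCs.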

How the data were processed

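RNA from handpicked cells was amplified by single primer isothermal amplification and sequenced from both ends. Per the methods, the authors called bases with CASAVA 1.7, trimmed the reads with Cutadapt, aligned them to mm9 (STAR and BWA) and obtained gene counts from HTSeq. The strand setting of HTSeq is not given in the sources used here. The deposited values are raw counts per gene, without normalization. Between 44.2% and 72.1% of reads in a library were not assigned to a gene, and they were left out. This share was highest in OHCs (P22), at 72.1% in the library of day 21 and 66.8% in that of day 22. The day 21 library also had the fewest genes detected (14332), and 10 genes held 41.3% of its counted reads.

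In 4 of 10 sample records the attached file carried the title of another sample. Files were assigned by the title in their name and checked against the study's table of CPM, where each file was a constant multiple of its own column (coefficient of variation at most 0.000138%). The files as attached were kept as an alternative.

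Counts of 16891 genes kept by filterByExpr were tested with edgeR 4.0.16 (R 4.3.3, TMM, quasi-likelihood F-test, 2-sided contrasts) in 1 model of all 10 libraries, with Benjamini-Hochberg adjustment over all genes and a threshold of 0.05. The standard error was the log2 fold change divided by the square root of F. The common dispersion was 1.12. The study calls the 2 libraries of a type biological duplicates. The number of animals behind each pool is not given in the sources used here. Ratios with 3 or fewer reads in a group were given with exact binomial intervals on the summed reads, which cover counting error only. Correlations used log2 CPM with a prior count of 2, and gene positions came from GENCODE M1.

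The alternatives were limma-voom (limma 3.58.1, the method the study names), DESeq2 1.42.0, no low count filter (23415 genes), a fit of only the types compared, the files as attached, and leaving out each library. The code of the tests was tried on simulated counts, whose outcome is not given here and is not used as support for any result. The members, lists and tests were chosen with earlier results of these data known. The genes named were the members, pathway genes called in any comparison, the nearest pair of genes by correlation for each member, and Atoh1. Markers were named from fixed lists.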

Additional observations from a re-analysis of the deposited data

How the results depend on the processing

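No paired analysis was possible because the cell types share no replicate numbers. Of the 22 called member differences, DESeq2 and the unfiltered fit kept 22 each, limma-voom kept 13 and the fit of only the types compared kept 9. Counts of members called differed by over 1.5 times as follows, with no share of all genes given for the alternatives. In cHCs against SCs (1) limma-voom and the unfiltered fit gave 4 and DESeq2 5. In OHCs (P7) against SCs (4) DESeq2 and the unfiltered fit gave 7 and the fit of only these types 1. In IHCs against SCs (1, Jag2) limma-voom gave 2 (Hey1 and Jag1, not Jag2), and DESeq2 and the unfiltered fit 5. The fit of only these types also gave 1, but it was Hey2 in place of Jag2. In OHCs (P7) against cHCs (0) limma-voom gave 1, DESeq2 5 and the unfiltered fit 3. In OHCs (P22) against cHCs (5) the fit of only these types gave 1. In OHCs (P22) against OHCs (P7) (1) limma-voom and the fit of only these types gave 0, DESeq2 6 and the unfiltered fit 5. In IHCs against OHCs (P22) (4) limma-voom and the fit of only these types gave 0, and DESeq2 and the unfiltered fit 7. The fit of only the types compared has fewer samples, and the cause of the other changes was not tested.

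Leaving out each library in turn gave from 1 to 3 calls in cHCs against SCs, 2 to 5 in OHCs (P7) against SCs, 6 to 7 in OHCs (P22) against SCs, 0 to 3 in IHCs against SCs, 0 to 1 in OHCs (P7) against cHCs, 1 to 6 in OHCs (P22) against cHCs, 0 to 0 in IHCs against cHCs, 0 to 2 in OHCs (P22) against OHCs (P7) and 0 to 6 in IHCs against OHCs (P22). A lone library left in a type was assumed to vary like the other types.

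When each record's own attached file was used instead, which exchanges libraries between types, 0 members were called by edgeR in any comparison. The log2 fold changes of cHCs against SCs then changed sign for Jag1 (0.93), Jag2 (-2.71), Dll1 (-1.61), Hes1 (1.03), Hes5 (-7.34) and Lfng (-0.36), as did that of Jag2 in IHCs against SCs (-0.32).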
